A study of Rattus norvegicus with 24 samples.

Results

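The loci described here are stretches of the rat genome at which StringTie, a program that assembles transcripts from aligned reads, built a transcript on the strand opposite to an annotated gene. A locus was taken when it carried an identifier given by the assembler, had a strand, overlapped a reference gene on the other strand by at least 1 base and overlapped none on its own strand. The loci were thus chosen by the strand and position that the assembler gave them in these tables, and their lying antisense is not a result. The 16 tables searched held 985695 assembled loci, and 178594 of them met the rule. Library 56 alone held 95605, and the other 15 libraries together held 82989 of their 826122 assembled loci (10.05%). Loci of the 15 libraries that shared at least 1 base on the same strand were joined, which gave 24527 merged loci. Frontal cortex RNA came from adult male Sprague-Dawley rats killed 24 h after inhalation of tungsten particles. The Control group (0 mg/m3) and the High group (80 mg/m3) had 8 rats each, and each library is 1 rat. The tables of the Low group hold no assembled loci and were not used for these counts. Polyadenylated RNA was selected and libraries were prepared with a stranded kit, so that the strand of a transcript is readable from its reads.

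Antisense transcripts are made from the DNA strand that is not the template of the annotated gene. They arise in several known ways, namely from promoters that fire in both directions, from starts inside a gene, and from neighbouring genes whose transcription runs on into the next gene. Some are long non-coding RNAs that silence the gene they cross, as Kcnq1ot1 and the neuronal Ube3a antisense transcript do at imprinted genes of the brain, while others have no known role. In assembled transcripts, an antisense locus can also be the unannotated end of a neighbouring gene.

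Sequences of the small RNAs of 1 recurrent locus are shown first, because 2 microRNA genes share that place on opposite strands. The locus on the plus strand at chr1:141224067-141258627, in the positions of the tables, was assembled in 15 of 15 libraries. It ran opposite Mir3597-3, which encodes miR-9b. RefSeq places Mir9-3, a gene for the neuronal microRNA miR-9a, on the strand of the assembled locus in the assembly GRCr8, at the same place. The mature sequences from RefSeq are given 5′ to 3′ with the seed (bases 2 to 8) in capitals. All 18 bases of miR-9b-3p are complementary to a run inside miR-9a-5p, and all 19 bases of miR-9b-5p to a run inside miR-9a-3p. The 4 seeds all differ.
rno-miR-9b-5p: uUCGGUUAucuagcuuuau
rno-miR-9b-3p: aUACAGCUagauaaccaa
rno-miR-9a-5p: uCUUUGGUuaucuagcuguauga
rno-miR-9a-3p: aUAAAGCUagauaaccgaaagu

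Promoters are shown for genes whose antisense locus began within the first 150 bases of the gene and ran away from it. Whether these promoters are read in both directions was not tested. Of the loci found in all 15 libraries, 21 with a named gene began there and crossed the gene start. RefSeq promoters in GRCr8 (250 bases before to 50 bases after the gene start) were at hand for 17 of these genes. The 3 with the highest antisense coverage are printed, a choice made after their values were seen, on the strand of the annotated gene. Capitals mark 3 short motifs on either strand. Of all 33469 promoters in the RefSeq table, 14.2% held TATAAA. The letters CCAAT occurred in 37.5% of them, and the letters GGGCGG in 33.1%. Klhl34 (chrX:40969072-40969371, minus strand) held CCAAT 2 times and GGGCGG 2 times, the latter overlapping by 1 base. Irf2bpl (chr6:112262215-112262514, minus strand) and Shc2 (chr7:10717070-10717369, plus strand) each held GGGCGG 2 times, and none of the 3 held TATAAA. The 17 promoters contained between 3 and 47 CG pairs with a median of 21, and the median over all promoters was 7. All promoters were not matched to the 17 for expression of the gene, and its part in this difference was not tested. A match of letters is a description and not evidence of a bound factor.
Klhl34: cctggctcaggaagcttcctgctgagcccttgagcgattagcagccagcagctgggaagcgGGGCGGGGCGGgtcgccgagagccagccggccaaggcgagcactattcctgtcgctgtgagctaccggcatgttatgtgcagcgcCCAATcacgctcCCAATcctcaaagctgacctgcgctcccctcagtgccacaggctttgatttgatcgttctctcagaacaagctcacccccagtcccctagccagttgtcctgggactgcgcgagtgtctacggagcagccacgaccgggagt
Irf2bpl: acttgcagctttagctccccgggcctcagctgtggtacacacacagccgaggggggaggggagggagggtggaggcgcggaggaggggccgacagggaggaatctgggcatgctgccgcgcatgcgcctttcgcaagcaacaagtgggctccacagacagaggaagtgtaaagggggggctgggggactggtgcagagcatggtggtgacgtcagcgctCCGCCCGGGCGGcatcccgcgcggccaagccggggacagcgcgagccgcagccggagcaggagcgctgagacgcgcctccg
Shc2: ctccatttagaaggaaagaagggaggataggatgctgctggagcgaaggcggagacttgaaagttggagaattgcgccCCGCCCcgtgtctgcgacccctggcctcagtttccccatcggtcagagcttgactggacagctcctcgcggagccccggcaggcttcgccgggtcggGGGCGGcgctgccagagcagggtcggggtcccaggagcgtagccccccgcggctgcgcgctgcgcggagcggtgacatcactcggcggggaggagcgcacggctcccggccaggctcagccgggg

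Depth, as the bases sequenced that the ratio of coverage to FPKM gives, was 4.95 to 7.86 gigabases in the 15 libraries and 5.94 in library 56. Markers of neurons and glia were present in all 16 libraries, with a lowest scaled coverage of 396 for Syt1 (a synaptic vesicle protein), 133 for Gfap (astrocytes) and 1131 for Mbp (myelin). Scaled coverage is mean read depth per base divided by the summed depth of all reference genes in the library, times 1000000. Of the vascular markers, Flt1 was present at 14.2 to 29.0 and Cldn5 was listed at 0 to 0.128, while Pecam1 had no value. Striatal markers were present at unequal levels between libraries (Drd2 from 1.61 to 42.3), and their part in the results was not tested.

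Library 56 read the strands the other way round from every other library. Of 2252 loci that lay outside all reference genes in each of the 15 other libraries, 1935 had a locus in library 56 on the other strand only and 2 on the same strand only. A further 295 had a locus on both strands and 20 had none. Each of the 15 libraries was held out in the same way, and on the same strand only it had between 1897 and 2016 of 2273 to 2364 recurrent loci, with 1 to 13 on the other strand only. At the 641 antisense loci found in all 15 libraries, library 56 had a locus on the same strand only at 4, on the other strand only at 264, on both at 369 and on neither at 4. Each of the 15 libraries, held out, had a locus on both strands at 82.5% to 89.7% of such loci. On the same strand only it had 9.57% to 14.9%, and on the other strand only 0.310% to 2.56%. The values of library 56 are therefore given apart, and comparisons between groups are given with and without it.

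**Figure D1:**
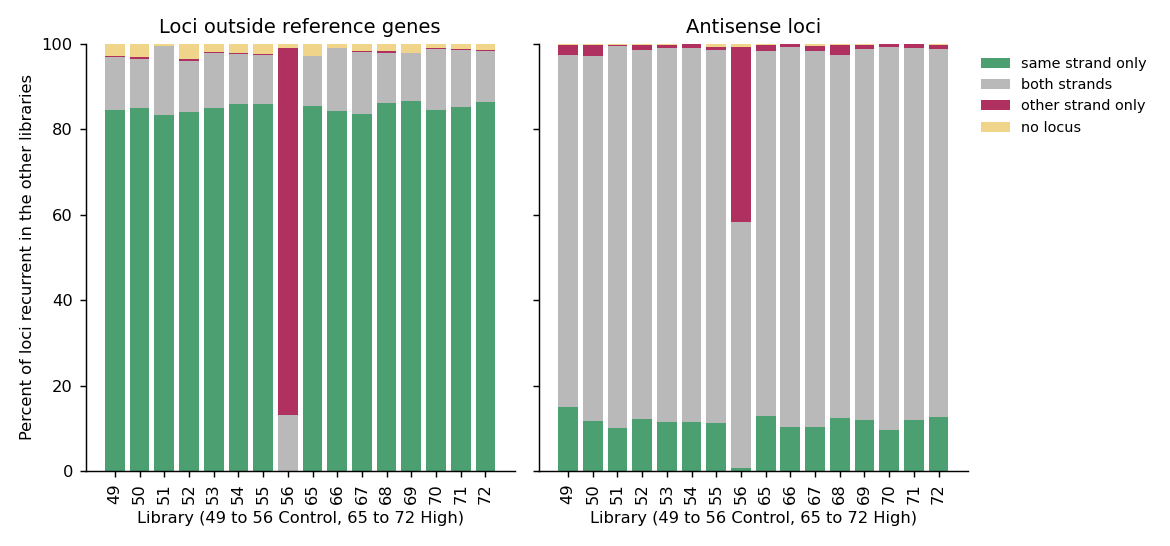
Percent of recurrent loci (y axis) that each library (x axis) held on the same strand, on both strands, on the other strand or not at all, for loci outside reference genes (left) and antisense loci (right). Recurrent loci are those found in all other libraries, library 56 never among them. In library 56 the other strand alone held 1935 of 2252 outside loci, and in the rest at most 13.

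The 15 libraries carried 4340 to 7413 antisense loci, with a median of 5075. In Control without library 56 the lowest, median and highest number were 4340, 5037 and 7278, and in High they were 4612, 5608.5 and 7413, so the ranges overlapped almost fully. Library 56 had 95605, which was 12.9 times the highest of the others. With it, the mean was 16528 ± 31965 (SD, n = 8) in Control and 5797 ± 1142 (n = 8) in High (exact permutation test, two-sided, p = 0.842). Without it the direction turned, from 5231 ± 966 (n = 7) in Control to 5797 ± 1142 in High (exact permutation p = 0.316). Depth moved with these numbers. The 5 libraries over 7.17 gigabases, 1 Control and 4 High, held 6044 to 7413 loci, and the 10 libraries of 4.95 to 6.09 gigabases held 4340 to 5397. Since the libraries fall into these depth groups, and both Control and High span them, no correlation is given over all 15 or within Control or High. Within the 10 shallower libraries, r was 0.53 (permutation p = 0.112, adjusted p = 0.112 over 2 measures of depth) and rho was 0.52 (permutation p = 0.134, adjusted p = 0.204). Without the 2 libraries farthest from the median depth r was 0.18. With the summed coverage of the reference genes as the other measure of depth, r was 0.56 (permutation p = 0.0945, adjusted p = 0.112) and rho was 0.44 (permutation p = 0.204, adjusted p = 0.204), and r was 0.50 without its 2 farthest libraries. Neither measure passed the test in these 10 libraries.

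**Figure D2:**
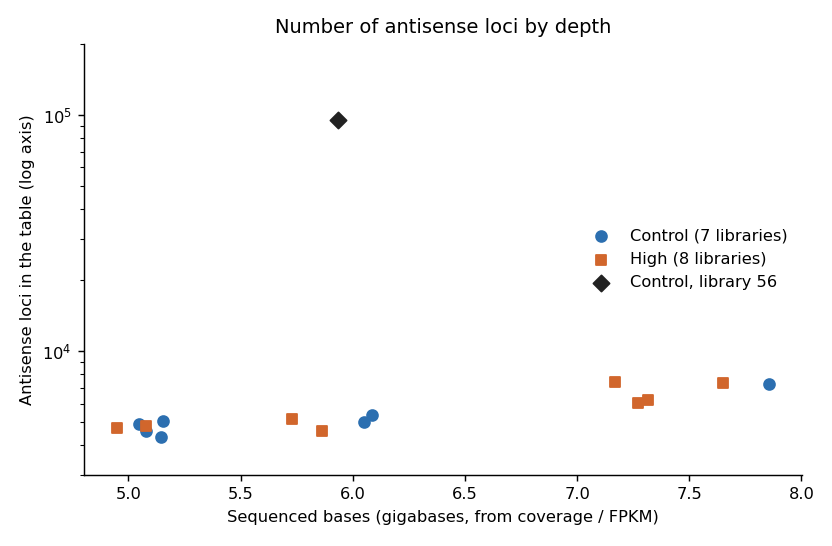
Number of antisense loci per library (y axis, log scale) against sequenced gigabases (x axis). The 5 deepest libraries hold 6044 to 7413 loci and the other 10 hold 4340 to 5397, while library 56 stands at 95605 at a depth of 5.94 gigabases.

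Most antisense loci were short and thinly covered. The median coverage in a library was 3.29 to 3.41 reads per base in the 15 libraries and 3.49 in library 56, and the upper quartile was 4.26 to 4.55 in the 15. The median span was 430 to 473 bases, and 547 in library 56, while the shortest locus had 200 bases in every library. Between 82.3% and 85.2% of the loci lay wholly inside the annotated gene. Plus and minus strands were used about equally, with 2177 to 3710 loci on the plus strand and 2163 to 3734 on the minus strand.

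Against loci outside all reference genes of the same library, antisense loci were slightly better covered and longer. Both classes were set by overlap with genes, and a longer locus is less likely to stay clear of all genes. A difference in span can thus follow from the rule alone. The p-values for span therefore cannot show that antisense transcripts are longer. The part of span in the coverage difference was not tested. The median coverage was higher by 0.0447 ± 0.0612 (SD of 16 paired differences) and was higher in 13 of 16 libraries (permutation test with sign flips, two-sided, p = 0.00555). The median span of the antisense loci was longer by 20.03 ± 26.5 bases, in 14 of 16 libraries (permutation p = 0.000427). Without library 56 the differences were 0.0335 ± 0.0430 in coverage, in 12 of 15 libraries (permutation p = 0.0111), and 14.03 ± 11.7 bases in span, in 13 of 15 (permutation p = 0.000854). Among loci with a coverage of at least 5 the differences were wider, 0.387 ± 0.159 in coverage and 220 ± 85.0 bases in span, both in 16 of 16 libraries (permutation p = 3.05e-05, the smallest that 16 sign flips can give).

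The antisense loci took 0.752% to 0.938% of the summed coverage of a library, and 15.99% in library 56. The Control mean was 0.866% ± 0.0359 (n = 7) without library 56 and the High mean was 0.859% ± 0.0608 (n = 8; exact permutation p = 0.794). With library 56 the Control mean was 2.76% ± 5.35 (n = 8; exact permutation p = 0.397). As bulk tissue was sequenced, fewer cells of a type and less RNA per cell cannot be told apart in any of these levels.

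In relation to the gene on the other strand, the median locus had 0.109 to 0.225 of its coverage in the 15 libraries, and 0.0828 in library 56. The mean of these medians was 0.167 ± 0.0310 (n = 7) in Control without library 56, 0.156 ± 0.0414 (n = 8) with it, and 0.154 ± 0.0352 (n = 8) in High (exact permutation p = 0.461 and 0.899). The 5 deeper libraries had the lowest medians, at 0.109 to 0.133, against 0.148 to 0.225 in the 10 others. Between 951 and 1346 loci a library exceeded the level of their sense gene (17.5% to 24.9% of those with a ratio). For 123 to 208 loci a library the sense gene was listed at 0, and these have no ratio. Within a library the coverage of a locus and that of its sense gene hardly rose together (Spearman rho of 0.0131 to 0.0551 across loci in the 15 libraries, 0.122 in library 56). The range of locus coverage was narrow, with a lower quartile of 2.79 to 2.84 and an upper quartile of 4.26 to 4.55 in the 15 libraries. A low rho over such a range does not show that the 2 levels are independent.

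Recurrence was low for most loci and complete for few. Of the 24527 merged loci, 16105 (65.7%) were found in 1 library and 641 (2.61%) in all 15. Loci outside reference genes recurred to a similar degree, with 66.2% in 1 library and 1.84% in all 15. Recurrent loci were longer and better covered, from a median span of 246 bases and a scaled coverage of 1.39 for loci in 1 library to 4812 bases and 2.73 for those in all 15. Merging joins neighbouring fragments and so lengthens recurrent loci. Of the 95605 loci of library 56, 11.7% overlapped an antisense locus of another library on the same strand.

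The 641 loci found in all 15 libraries lay opposite 578 reference genes, with 316 on the plus and 325 on the minus strand. They were inside the gene in 385 cases, crossed its start in 96 and its end in 77, and covered it whole in 83. Their median scaled coverage ran from 0.197 to 515, with quartiles of 1.88 and 5.26, and 76 exceeded 10. Of the 637 with a ratio, 174 exceeded their sense gene, 289 lay between 0.1 and 1 of it, and 174 lay at or under 0.1, with a median of 0.268. In 87 cases the sense gene itself had a median scaled coverage under 1. Across the 641 loci, rho between antisense and sense level was 0.10.

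**Figure D3:**
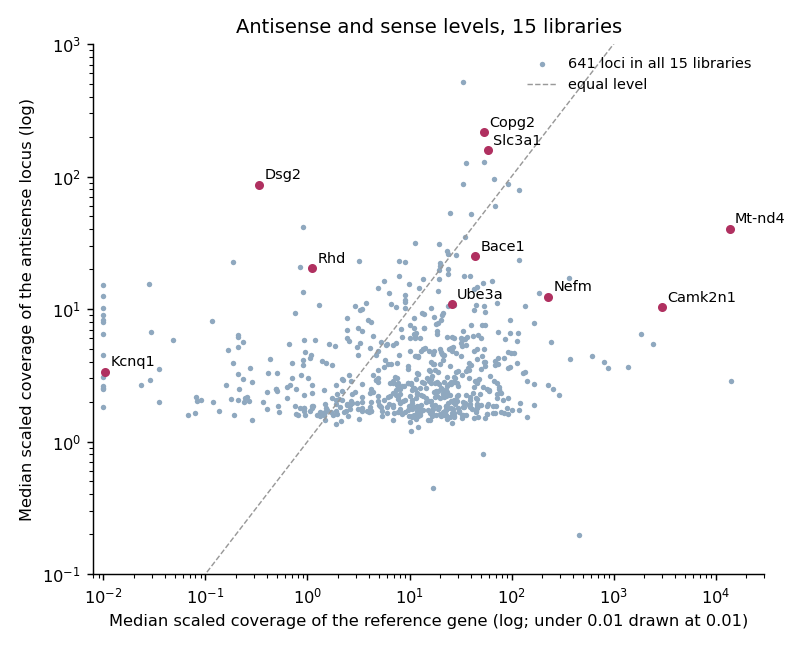
Median scaled coverage over 15 libraries of each of the 641 loci found in all of them (y axis, log) against that of the gene on the other strand (x axis, log). The dashed line marks equal levels. Dsg2, Rhd and Kcnq1 lie far above it, and Nefm, Camk2n1 and Mt-nd4 far below.

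Recurrent loci often began shortly behind another gene on their own strand. Of the 641, 89 (13.9%) started within 1000 bases after the end of a reference gene on the same strand and 256 (39.9%) within 5000. Among loci found in 1 library these shares were 2.14% and 10.6%. The gene before the 89 loci had a median scaled coverage of 32.5, and 74 of the 89 such genes had at least 10. For the other 552 recurrent loci the nearest gene before them had a median of 14.5, and 330 of the 552 had at least 10. In the other direction the shares were nearly alike, as 6.71% of the recurrent loci and 4.70% of those in 1 library ended within 5000 bases before a gene on their own strand. Loci over a gene start were also more frequent among recurrent loci, since 27.9% crossed the start or covered the gene, against 5.22% of loci in 1 library. These shares are descriptions of merged loci, which are longer where they recur.

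A sharp edge at 150 bases was seen where antisense loci crossed the boundary of a gene. Of loci that crossed the start of the annotated gene and ended inside it, 777 reached 140 to 149 bases into the gene and 39 reached 150 to 159, summed over the 15 libraries. At the end of the gene these counts were 511 and 17. Overlaps of 1 to 149 bases made up 55.6% of 7268 loci crossing a start and 64.0% of 4756 crossing an end. Every library showed the edge, with 36 to 72 loci just below it at the start and 0 to 6 just above. In library 56 the counts were 1015 and 18 at the start and 2394 and 14 at the end. The sources used do not state the read length, and the part of read length or assembler settings in this edge was not tested.

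**Figure D4:**
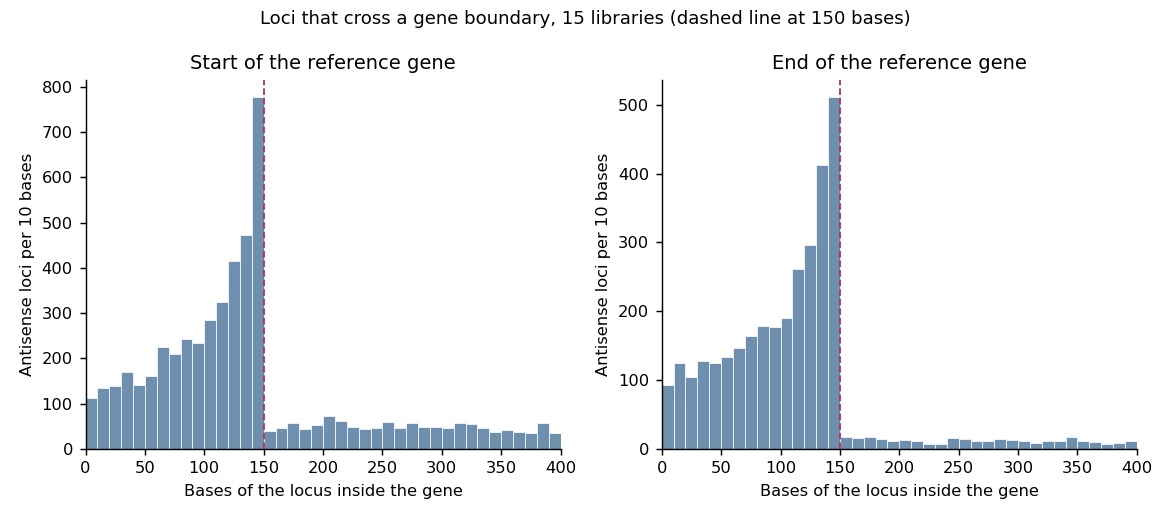
Number of antisense loci per 10 bases (y axis) by how many bases of the locus lie inside the annotated gene (x axis), for loci crossing the gene start (left) or end (right), summed over 15 libraries. Counts climb to 777 and 511 just below 150 bases and drop to 39 and 17 just above.

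Antisense loci were more often found opposite expressed genes. In a single library, 0.664% to 1.26% of the 12207 genes listed at a median of 0 carried a locus, against 14.3% to 20.9% of the 8125 genes with a scaled coverage of 10 to 100 and 13.3% to 21.6% of the 1403 genes of 100 or more. The share with a locus in all 15 libraries was highest at 10 to 100 (3.89%) and was 2.42% at 100 or more. In library 56 these latter 2 classes reached 88.1% and 86.5%, and 62.4% of the 6052 genes of 1 to 10 carried a locus there.

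Synapse and channel genes carried loci in many cases. Of the 30 listed, all expressed at a scaled coverage of at least 1, 25 had a locus in at least 1 of the 15 libraries and 5 in all 15. Of all 12904 expressed genes with a symbol, 46.8% had a locus in any library and 3.64% in all 15. Among these were Scn1a (a neuronal sodium channel), Nrxn2 (a presynaptic adhesion protein) and Shank3 (a postsynaptic scaffold). The loci of Scn1a and Shank3 were low against the gene, with a median ratio of 0.140 and 0.0203. Listed genes were not matched to the others for length, and its part in these shares and those below was not tested.

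Among 18 neuronal genes 12 had a locus in any library and 3 in all 15, among them the neurofilament genes Nefl and Nefm. Oligodendrocyte genes had 9 of 14, with Mbp in all 15. The 9 expressed vascular genes had 7, and none in all 15. Astrocyte genes had 3 of 10, microglial genes 3 of 9, striatal genes 1 of 8, choroid plexus genes 0 of 2 and blood genes 1 of 4, with 0 in all 15 for each. Of 15 expressed activity genes, 6 had a locus and 0 had it in all 15. The list of genes known for antisense partners had 23 of 27 with a locus and 5 in all 15, and since it was written from that knowledge its high share is no independent evidence.

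The most abundant locus lay on the minus strand of chr3:152460378-152464989, opposite the unnamed gene AABR07054400.1. Its scaled coverage was 424 at the lowest, 541 at the median and 603 at the highest in the 7 Control libraries, and 422, 503 and 563 in the 8 High libraries. The gene on the other strand had a median of 33.1. In library 56 the locus was at 1.73 and the gene at 71.9, above its highest value in the others (40.3).

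Copg2, which encodes a subunit of the COPI vesicle coat, carried 2 of the 3 most abundant loci opposite a named gene. The larger, chr4:58078903-58094646 on the plus strand, had 177, 214 and 241 in Control and 133, 236 and 363 in High. Its neighbour at chr4:58076294-58078376 had 104, 129 and 169 in Control and 110, 128 and 205 in High. Copg2 itself was at 42.1 to 65.1, so both loci exceeded it in each of the 15 libraries, by a median ratio of 3.89 and 2.40. The nearest gene before them on their strand was Mest, an imprinted gene at a median of 20.6, which ended 13155 bases before the second locus. In mice, extended transcripts of Mest are known to run into Copg2. In library 56 the loci were at 2.28 and 1.72, and Copg2 was at 57.4.

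Some other abundant loci began a short way behind an expressed gene. Opposite Slc3a1, an amino acid transporter subunit, a locus of 2562 bases began 731 bases after Prepl, a peptidase-like gene, and had 119, 151 and 167 in Control and 144, 169 and 241 in High. The locus over the end of Mmp24, a membrane metalloproteinase, began 422 bases after Eif6, a ribosome assembly factor, and had 75.1, 90.8 and 111 in Control and 80.9, 87.9 and 94.3 in High. Opposite Mtx1, a mitochondrial import protein, a locus of 3908 bases had 41.2, 53.0 and 59.1 against 40.1, 52.8 and 56.3. At each of these loci the ranges of Control and High overlapped.

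Other abundant loci had no close gene before them on their strand. Opposite Scamp1, a secretory vesicle protein, a locus of 497 bases had 58.4, 86.1 and 106 in Control and 72.2, 88.6 and 99.0 in High, nearly the level of the gene (median ratio 0.931). Ndrg3 carried the most variable of these loci, with 18.7, 60.1 and 143 in Control and 13.3, 57.5 and 96.8 in High. Dsg2, a desmosomal cadherin, was itself at 0.336, and its locus had 78.6, 91.1 and 101 in Control and 74.9, 86.3 and 99.9 in High, a median ratio of 298. Mab21l1, a developmental gene that lies within the larger gene Nbea in mammals, was at 0.909, and the locus that covered it had 37.3, 43.2 and 52.0 in Control and 31.9, 37.6 and 43.1 in High.

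High ratios were also found for several genes whose known function lies outside the cortex. Rhd, a red blood cell membrane protein, was at 1.12 and its locus at 20.3, a median ratio of 17.5 that ranged from 10.6 to 30.7. Slc10a1, the bile acid importer of liver cells, was at 1.06 and its locus at 4.28 (ratio 4.30), and this locus began 2890 bases after the splicing factor gene Srsf5. Cfap126, a protein of motile cilia, had a ratio of 3.03, with the locus beginning 2377 bases after Sdhc, a subunit of mitochondrial complex II. For Spata9, a testis gene, the ratio was 3.04, for Stard9 3.42, for Tmcc3 3.46 and for Fam151a 3.23. Library 56 held no antisense locus that overlapped any of these 7 loci on the same strand. The rest of each gene was not searched for this.

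Loci were found at imprinted genes with known antisense partners. Ube3a, a ubiquitin ligase silenced on the paternal copy in neurons, was covered whole by a locus of 101729 bases on the minus strand (chr1:116584631-116686359), and the nearest gene before it was a SNORD115 gene at 12722 bases. That locus had 8.05, 12.5 and 17.9 in Control and 8.08, 10.4 and 21.5 in High, about 0.503 of the level of Ube3a. Library 56 had 10.2, within the range of the others. Kcnq1, a potassium channel subunit, was almost silent at 0.0105, and the locus of 141690 bases inside it, where Kcnq1ot1 is known to lie, had 2.70, 3.67 and 3.94 in Control and 1.78, 3.03 and 3.65 in High. Gnas, the stimulatory G protein alpha subunit, had 4 loci in 12 to 15 of 15 libraries, all on the minus strand and at 0.0249 to 0.0945 of the gene. In library 56, 1 of these reached 1074, where the highest of the others was 2.39.

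Outside imprinted genes, Bace1, the beta-secretase, carried a locus of 3658 bases at 19.2, 24.96 and 29.2 in Control and 21.2, 24.3 and 26.9 in High, about 0.527 of the gene. Hif1a, the hypoxia-inducible factor, had a locus over its end at 1.21, 1.83 and 2.06 in Control and 1.16, 1.70 and 2.05 in High. Emx2, a homeobox gene of cortical patterning, had a divergent locus of 61331 bases in 13 libraries, and Zeb2, a zinc finger factor, was covered in 12. The Zeb2 locus was found in 7 of 7 Control libraries other than 56 and in 5 of 8 High libraries, with medians of 1.46 and 0.745 and overlapping ranges.

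**Figure D5:**
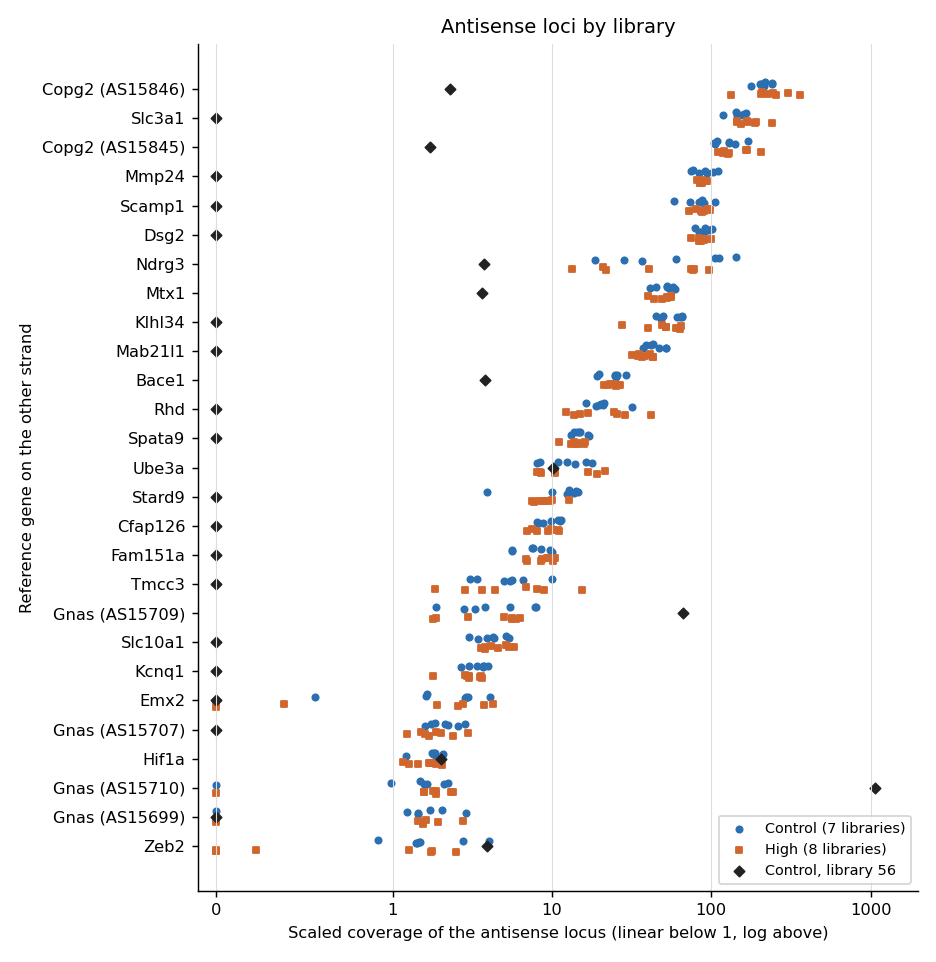
Scaled coverage of the antisense locus (x axis, linear below 1 and logarithmic above) for the genes named by rule (y axis), with 1 point a library. Control and High overlap at every gene, and library 56 lies at 0 or far from the others at most, but within the others at Ube3a, Hif1a and Zeb2.

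At the microRNA locus whose sequences are printed above, the transcript on the strand of miR-9a had 4.60, 9.07 and 19.95 in Control and 6.92, 8.79 and 13.0 in High. Mir3597-3 itself was listed at 0 in all 15 libraries and at 0.773 in library 56, where the plus strand had no antisense locus. A second microRNA gene, Mir3588, lay opposite a locus of 6483 bases found in 15 of 15 libraries, at 2.27, 2.71 and 4.12 in Control and 1.79, 2.51 and 2.79 in High.

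Divergent loci at the printed promoters began 146 to 148 bases inside the annotated gene. A merged locus takes the start that lies farthest inside the gene in any of the 15 libraries. The genes were chosen for a start within 150 bases, so lying below that edge is not a result. The locus of Klhl34, a kelch-family gene, had 44.7, 60.9 and 65.9 in Control and 27.5, 52.0 and 64.7 in High, a median of 1.35 times the gene. It spanned 6053 bases, and library 56 had no antisense locus overlapping it on the same strand. At Irf2bpl, a transcriptional regulator of the brain, the values were 12.1, 13.7 and 15.98 against 11.7, 15.2 and 19.8, and at Shc2, a neuronal adaptor protein, 8.45, 10.4 and 14.8 against 7.97, 11.1 and 12.8. Hnrnpu, an RNA-binding protein of the nucleus, had a divergent locus at 0.0230 of its own level, and Camk2n1, an inhibitor of the kinase CaMKII, had it at 0.00364. Nefm and Nefl had loci that began 178 and 198 bases inside the gene, at 12.4 and 17.2, where the genes were at 228 and 365. All of these were present in 15 of 15 libraries.

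On the mitochondrial genome, 2 loci of the minus strand were found in all 15 libraries. The locus covering Mt-nd4, a subunit of complex I, had 15.5, 36.3 and 54.9 in Control and 28.2, 46.5 and 61.4 in High, against 13688 for the gene. Library 56 had 1805 there.

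High and Control were then compared in 1 fit over all reference genes and merged loci, with limma on log2(scaled coverage + 1). The fit kept 2659 antisense loci with a mean of at least 1, and 0 of them passed an adjusted p of 0.05 (limma, Benjamini-Hochberg over 38454 features), as 0% of all features did. At an unadjusted p under 0.05, limma had 83 antisense loci (3.12%), beside 3.35% of all features. A locus could pass the filter through a high value in library 56 alone, which is a Control library. The 3.12% and the next median are thus partly set by the filter. The median log2 difference, High minus Control, was -0.13 for antisense loci and -0.04 for all features. Without library 56 it was -0.03 for 1896 antisense loci and -0.03 for all features, with 0 called (0% of all features) and 86 (4.54%) at an unadjusted p under 0.05, beside 3.36%. In 15 libraries, 0 antisense loci had values that did not overlap between the groups, higher or lower, beside 0.00265% and 0.00531% of all features. Of the 641 recurrent loci, 639 entered that fit, with log2 differences from -0.93 to 0.82 and a median of -0.04. Their sense genes had 504 members in the fit, 0 of which passed, with 6 at an unadjusted p under 0.05. The p-values weigh the group difference against the spread between libraries, in which rat, library preparation and depth cannot be told apart. Loci set to 0 where they were not assembled widen that spread.

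Library 56 moved the fitted values of abundant loci. The larger Copg2 locus differed by 0.13 (SE 0.16) on the log2 scale without it and by 0.89 (SE 0.71, limma adjusted p = 0.994) with it. For the Slc3a1 locus the values were 0.22 (SE 0.11) and 1.12 (SE 0.84, limma adjusted p = 0.994). The direction turned at 15 of 27 loci named by rule. Among the abundant ones, the value went from 0.78 (SE 0.76) with library 56 to -0.03 (SE 0.08) without it at Mmp24, from 0.77 (SE 0.75) to -0.05 (SE 0.07) at Dsg2, from 0.55 (SE 0.69) to -0.18 (SE 0.16) at Klhl34 and from 0.47 (SE 0.64) to -0.22 (SE 0.09) at Mab21l1. At Hif1a, where library 56 lay among the others, they were -0.08 (SE 0.11) and -0.10 (SE 0.11).

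Jun, an immediate early gene, shows how a locus can be gained or lost at the gene boundary. It was singled out after its values were seen. Its antisense locus (chr5:114014135-114031318, plus strand) was listed in 8 of 8 High libraries, at 1.67, 10.6 and 13.8, and in 1 of 7 Control libraries, at 9.87 in library 51. The difference was 2.82 (SE 0.48, limma adjusted p = 0.431) on the log2 scale, and without Control library 51 it was the single antisense locus called (limma adjusted p = 0.000386). In 5 of the other Control libraries, however, a locus on the same strand began at 114014689 to 114014852, upstream of the start of Jun, a minus-strand gene that starts at 114014277, so that it counted as outside. In library 53 a longer locus reached into Jun and overlapped reference genes on both strands. Taking the best covered plus-strand locus of each library whatever its class, Control had 9.87, 12.2 and 15.004 and High had 6.17, 11.6 and 13.8, with means of 12.2 ± 1.94 (n = 7) and 10.9 ± 2.49 (n = 8; exact permutation p = 0.298). A transcript was thus assembled there in all 15 libraries, and what differed was where it began or ended and so whether it counted as antisense. In library 56 the same place carried 6 pieces on the minus strand. Lhpp, Ncoa3 and Lca5 were the other genes with a locus in all 8 High libraries and 1 Control library, and 0 genes had the reverse. These were 4 of 24527 merged loci. Of the 5 deeper libraries 4 were High, and the part of depth in this count was not tested.

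Losses to another class, as at Jun, were not rare. Loci found in 9 to 14 of the 15 libraries were missing 4413 times, and in 1241 of these (28.1%) the library held an assembled locus of another class on the same strand at that place.

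Of the antisense loci of library 56, 84400 met no antisense locus of another library. The 5 best covered of them with a named gene were opposite Actb (beta-actin), Cplx2 (a regulator of synaptic vesicle release), Gnb1 (a G protein beta subunit), Prkar1b (a regulatory subunit of protein kinase A) and Ppp2r2c (a subunit of protein phosphatase 2A). Their scaled coverage was 690 for Actb, 621 for Cplx2, 422 for Gnb1, 419 for Prkar1b and 356 for Ppp2r2c. This was 0.454 to 1.82 of the gene in the same library. The genes themselves lay within the range of the other libraries, for example 1520 for Actb against 1129 to 1739, except Cplx2 at 657 against 282 to 648.

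Plus and minus were also exchanged for the assembled loci of library 56, a choice made after the strand counts were seen. This left 17471 antisense loci, nearer to the highest other library (7413) than the 95605 before, with a median span of 9983 bases, which took 28.6% of the summed coverage, while the 95605 loci then lay on the strand of their gene. Of the 17471, 18.6% spanned less than 1000 bases. Neither orientation of library 56 gave a number or share in the range of the other 15 libraries. As the exchange only relabels loci, it cannot show whether the strand setting of library 56 differed.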

How the data were processed

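Transcripts were quantified in frontal cortex RNA of 8 Control and 8 High rats, grouped by the sample labels. The authors deposited 1 StringTie gene table per rat with coverage (a signal, the mean depth over the bases of a gene, unscaled), FPKM as deposited (coverage relative to the bases sequenced) and a TPM column treated as a score, since per the file headers it is TPM but it does not sum to 1000000 here. The submitters' notes name FastQC, Trimmomatic, TopHat2, StringTie and the build mRatBN7.2, and the clone-based gene names and the positions in the tables fit an earlier assembly, so positions are given as the tables list them and no sequence was read by position. The sources used state no versions or options.

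Coverage was divided by the summed coverage of 32883 reference genes, times 1000000. Loci were joined over the 15 libraries without 56 at 1 shared base, with the length-weighted mean as the value, and a locus not assembled in a library was set to 0. Features with a mean of at least 1 were tested on log2(value + 1) with limma 3.58.1 (trend, robust; R 4.3.3), two-sided. Per-library values were tested with exact permutation tests (scipy 1.17.1, Python 3.11.15). Limma and the permutation test were tested on simulated data. Sequences came from RefSeq tables of GRCr8, matched by symbol. The p-values rest on 1 library per rat.

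Named genes had a usable symbol. They were the 10 loci in all 15 libraries with the highest coverage, the 8 with the highest ratio over a gene of at least 1, listed antisense partners in at least 12 libraries, and the 5 highest loci of library 56 alone. Any other gene was named after its values were seen. The members, lists and rule were chosen with earlier results of these data known. Alternatives were another pseudocount (0.1), no filter, unscaled coverage, the FPKM column, a coverage of at least 5, other overlaps and leaving out each library. Values of some listed genes are not reported here, while counts over the lists include them.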

Additional observations from a re-analysis of the deposited data

Results flagged for a closer look

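In a group of 8 rats, a value was listed here when its gap to the nearest other value was above the 95% limit of Dixon's test. Chance alone gives about 1 in 20 groups, and 64 sets of 8 values were examined, 26 of which had such a value. In 21 of the 26 the library was 56, with 95605 antisense loci (4340 to 7278 in the other Control libraries), 15.99% of the summed coverage (0.824% to 0.917%) and a median span of 547 bases (430 to 473).

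Its scaled coverage was 0 opposite Slc3a1, Mmp24, Scamp1, Dsg2, Klhl34, Mab21l1, Slc10a1, Fam151a, Spata9, Cfap126, Kcnq1 and, at the locus of 10255 bases, Gnas, where the other Control libraries had from 1.61 (Gnas) to 167 (Slc3a1). It was 2.28 and 1.72 at the Copg2 loci (104 to 241 in the others), 3.66 at Mtx1 (41.2 to 59.1) and 3.801 at Bace1 (19.2 to 29.2). At 2 further Gnas loci it was far above the others, with 66.1 (1.88 to 7.92) and 1074 (0 to 2.22). The part of the opposite strand of library 56 in these values was not tested.

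Outside library 56 there were 5 such values. Slc3a1 had 241 in High library 67 (144 to 190 in the other High libraries), Stard9 12.8 in High library 70 (7.47 to 10.009), and Kcnq1 1.78 in High library 66 (2.84 to 3.65). Hif1a had 1.21 in Control library 51 (1.77 to 2.06, library 56 included), and a Gnas locus was at 0 in High library 72 (1.57 to 2.39).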

How the results depend on the processing

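No paired analysis was possible because the groups share no replicate numbers. The difference in the number of antisense loci, High minus Control, was -10731 and turned to 566 without library 56, and leaving out each library in turn gave -12472 to 566. For the share of coverage these single omissions gave -2.17 to -0.00714 percentage points. For the median ratio they gave -0.0130 to 0.00726 around -0.00249, a change of sign in a difference that no setting brought past the threshold. The number of antisense loci called by limma stayed at 0 under another pseudocount, no filter, unscaled coverage, FPKM, summed pieces and without library 56, and single omissions gave 0 to 1, the locus at Jun without Control library 51. Merging over all 16 libraries raised the merged loci from 24527 to 107385 and lowered those in every library from 641 to 372, as it adds a library of 95605 loci. Leaving out library 56 turned the log2 difference at 15 of the 27 loci named by rule, none of which passed the threshold with or without it. The values without it were -0.0315 at Mmp24, -0.0463 at Dsg2, -0.416 at Ndrg3, -0.0328 at Mtx1, -0.18 at Klhl34, -0.22 at Mab21l1, -0.0151 at Rhd, -0.24 at Stard9, -0.0746 at Spata9, -0.0778 at Cfap126, -0.0034 at Ube3a, -0.15 at Kcnq1 and -0.12, 0.14 and -0.14 at 3 Gnas loci. Summed pieces turned Ndrg3 to -0.0555, and unscaled coverage turned Hif1a to 0.0189. Of 222 alternatives, 194 kept the direction and the side of the threshold, 25 turned the direction and 3 changed a count. Coverage near 3 reads per base, the median of a locus, limits the finding of low loci, so absence from a library is not shown for loci of that depth.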
